A study of Bassia scoparia with 27 samples.

Results

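The 150 transcripts described here were those of kochia (Bassia scoparia) whose normalized counts were lower at both 3 h and 10 h after fluroxypyr treatment (HAT) in all 3 lines of the study. Kochia is a tumbleweed of the Great Plains and fluroxypyr is a synthetic auxin herbicide. A transcript was kept when its mean log2(normalized count + 1) was lower than in untreated tissue by more than 1 at each time in each line, and its untreated mean was 50 or more in each line. Differences are given on this log2 scale, and the normalized counts are those deposited. Of 45517 transcripts in the table, 17980 met the untreated minimum and 563 met every threshold. The 69 of these that the paper names were set aside, the remaining 494 were ranked by their weakest difference over lines and times, and the 150 furthest below 0 were taken. These same differences therefore chose the transcripts, so within-line differences are given as descriptions, and the test calls given for them support nothing.

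The libraries came from Flur-R (labelled B3), a fluroxypyr-resistant line, and from 2 susceptible lines. Line 9425 is an inbred line that resists dicamba through a homozygous substitution in the auxin repressor IAA16, and J01-S (labelled J01) is a susceptible field population. The paper reports that the same IAA16 allele was also segregating in Flur-R. Meristem tissue with young leaves was taken from each plant after a water spray (untreated), and again from the same plants at 3 and 10 h after fluroxypyr, which was applied a day later. Of the 27 libraries, Flur-R gave 3 untreated, 3 at 3 HAT and 4 at 10 HAT, and 9425 gave the same numbers. J01-S had 2 untreated, 2 at 3 HAT and 3 at 10 HAT. The 3 and 10 h samples have no untreated tissue of the same hour, so treatment and time of day cannot be told apart, and a few plants of Flur-R and J01-S were in early flower and are not identified among the libraries. In bulk tissue, fewer cells of a type and less RNA per cell cannot be told apart either.

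Auxin is read in the nucleus, where it binds receptors of the TIR1/AFB family and Aux/IAA repressors together. The repressors are then degraded, and auxin response factors act on their target genes. Synthetic auxins hold this pathway in an active state, and broadleaf weeds respond with twisting growth, ethylene and abscisic acid production, and a later decline of photosynthesis. The deposited gene models give an identifier, a position and exons for each of the 150 transcripts but no description. The transcripts are therefore named by identifier, with a role given only where an isoform or a neighbour is described.

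Library totals of normalized counts ran from 59407638 to 76916252 untreated, from 59992177 to 75606047 at 3 HAT and from 50872625 to 61317818 at 10 HAT. Over the 1656 transcripts that differed between untreated 9425 and J01-S, the median position of each library was taken on a scale with 1 at untreated 9425 and 0 at untreated J01-S. Replicate 3 at 10 HAT lay at 0.99 among the libraries labelled J01-S, and at 0.29 among those labelled 9425. The other treated 9425 libraries lay between 0.98 and 1.00, and the other treated J01-S libraries between 0.00 and 0.18. Those 2 libraries, whose line is thus in doubt, were not used to choose the transcripts and are shown apart. Green tissue was checked with 4 transcripts described as chlorophyll-binding or photosystem proteins. Of these, 2 are overlapping isoforms of the locus Bs.00g240870, which count as 1 measurement. All 4 were at 44955 counts or more in every untreated library. Their sum was 663089 to 1281395 counts untreated, 192264 to 414858 at 3 HAT and 8623 to 27558 at 10 HAT. The paper lists all 4 among the most downregulated transcripts of these same samples. Their lower counts therefore do not measure the amount of green tissue after treatment. The part of green tissue in the result was not tested. No marker of the shoot meristem is described in the sources used here.

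The 150 transcripts were already several-fold lower at 3 HAT, and most were lower still at 10 HAT. At the median transcript, Flur-R differed from untreated by -2.29 on the log2 scale at 3 HAT and by -3.01 at 10 HAT. Line 9425 differed by -2.17 and -3.25, and J01-S by -2.27 and -3.02. On the log2(value + 1) scale Flur-R kept 20.5% of the untreated level at 3 HAT and 12.4% at 10 HAT, 9425 kept 22.3% and 10.5%, and J01-S kept 20.7% and 12.3%. Over the 17980 transcripts with the same untreated minimum, the 6 medians lay between -0.05 and 0.00. Within single transcripts the differences reached -7.01 for Flur-R, -6.36 for 9425 and -6.96 for J01-S, each at 10 HAT.

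**Figure D1:**
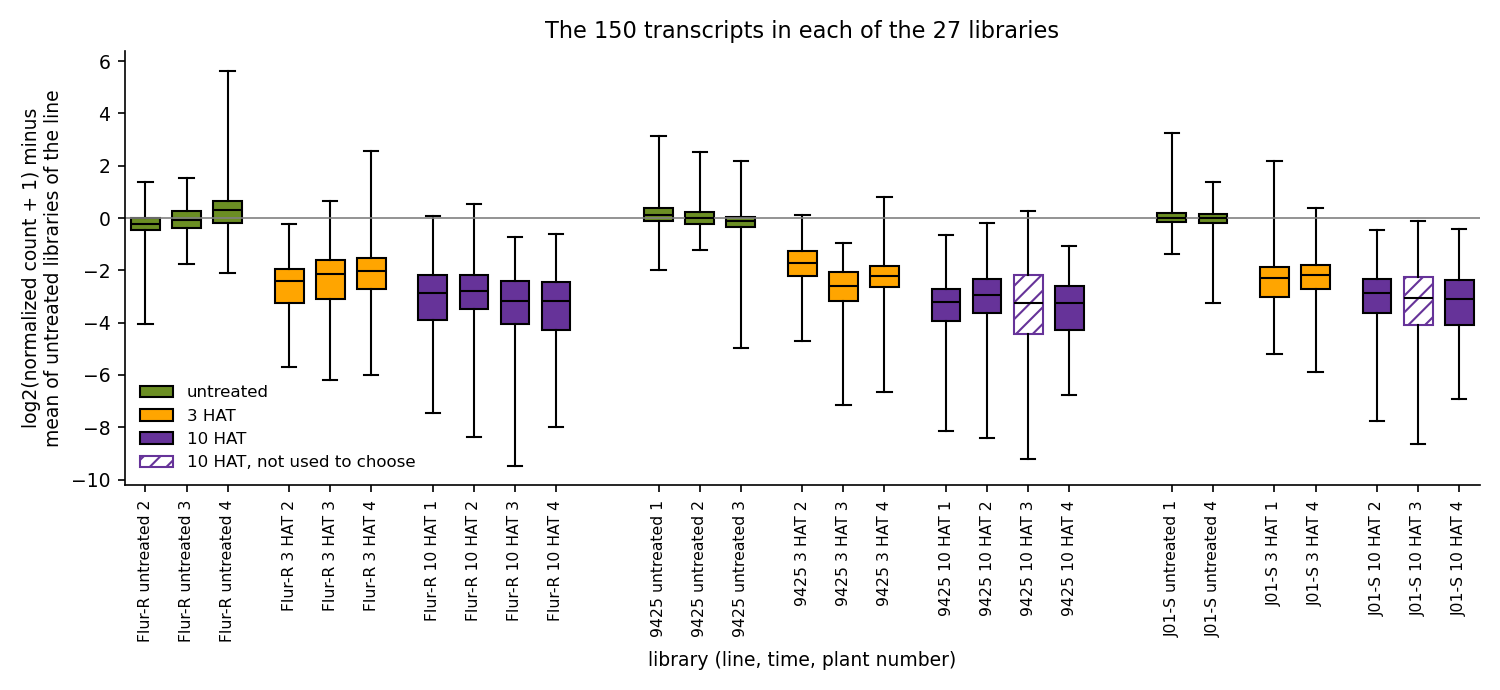
Box plots of the 150 transcripts in each of the 27 libraries, as log2(normalized count + 1) minus the mean of the untreated libraries of the same line, with untreated, 3 HAT and 10 HAT libraries left to right within each line. Boxes span the quartiles, lines mark medians and whiskers reach the lowest and highest transcript; every treated library, the 2 hatched ones included, has its median below -1.

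Summed over the 150 transcripts, untreated libraries held 469127 to 754307 normalized counts, which is 0.624 to 1.01% of a library. At 3 HAT the sum was 104618 to 199054, or 0.157 to 0.332% of a library, and at 10 HAT it was 68840 to 106692, or 0.12 to 0.175%. Every treated sum lay below every untreated one, and the sums at 3 and 10 HAT overlapped only by the highest at 10 HAT and the lowest at 3 HAT. Within the untreated Flur-R libraries, replicate 4 was the highest, with 754307 counts against 469127 and 518115 in replicates 2 and 3. The same plant was also the highest of the 3 at 3 HAT, with 165422 against 104618 and 127277, but the 4 Flur-R sums at 10 HAT lay within 68840 to 71930.

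Replicate numbers were assumed to mark plants, since libraries of a number deviated together. The lowering could then be followed within 8 plants that had an untreated library and 1 or 2 treated ones that were used, which gave 13 comparisons. In each of them 148 to 150 of the 150 transcripts were lower than in the plant's own untreated tissue. The number lower by more than 1 on the log2 scale was 132 to 150, and the share of the 17980 transcripts lower by as much in the same comparisons was 9.15 to 18.0%. The same libraries chose the 150, so these counts describe the plants and are no separate support for the lowering. The log2 difference of the median transcript was -2.43 to -1.74 in the 7 comparisons at 3 HAT and -3.65 to -2.62 in the 6 at 10 HAT. The weakest was plant 2 of 9425 at 3 HAT and the strongest was plant 4 of Flur-R at 10 HAT. Plants of a line varied more in the 150 than in most transcripts after treatment. The SD of log2 values within a group at 10 HAT was 0.74 at the median of the 150 in Flur-R (n = 4), 0.52 in 9425 (n = 3) and 0.63 in J01-S (n = 2), against 0.30, 0.25 and 0.22 over the 17980 transcripts. In untreated tissue it was 0.50, 0.35 and 0.26, against 0.26, 0.35 and 0.25.

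Across lines, 100 of the 150 transcripts had every one of the 17 treated libraries below every one of the 8 untreated libraries. Among the 17980 transcripts this held for 3.11%. Within Flur-R it held for 137 of the 150, within 9425 for 142 and within J01-S for 143. The share over the 17980 transcripts was not taken within lines. The lines also differ in their number of libraries, so these counts are not compared between lines. The choice used these same libraries, so nothing is read from the counts of non-overlap, across or within lines. With the limma test over 28945 transcripts, 114 of the 150 were called lower at 3 HAT in Flur-R (4.46% of all tested) and 137 at 10 HAT (11.1%). In 9425, 101 were called lower at 3 HAT (3.80%) and 137 at 10 HAT (11.0%). In J01-S, 83 were called lower at 3 HAT (3.82%) and 125 at 10 HAT (7.77%). The transcripts were chosen on these contrasts, so nothing is read from the counts. Single libraries moved the counts at 3 HAT: in 9425 the count was 58 without 3 HAT replicate 3, and in J01-S it was 47 or 37 without untreated replicate 1 or 4 and 36 or 55 without 3 HAT replicate 1 or 4. With plant as a random replicate block, the J01-S count at 3 HAT was 131. In a fit of only the groups compared, the counts at 3 HAT were 40 (Flur-R), 19 (9425) and 0 (J01-S), and that at 10 HAT in J01-S was 0. The share of all tested transcripts called was not taken under these other settings, so nothing about the 150 is read from the changes.

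**Figure D2:**
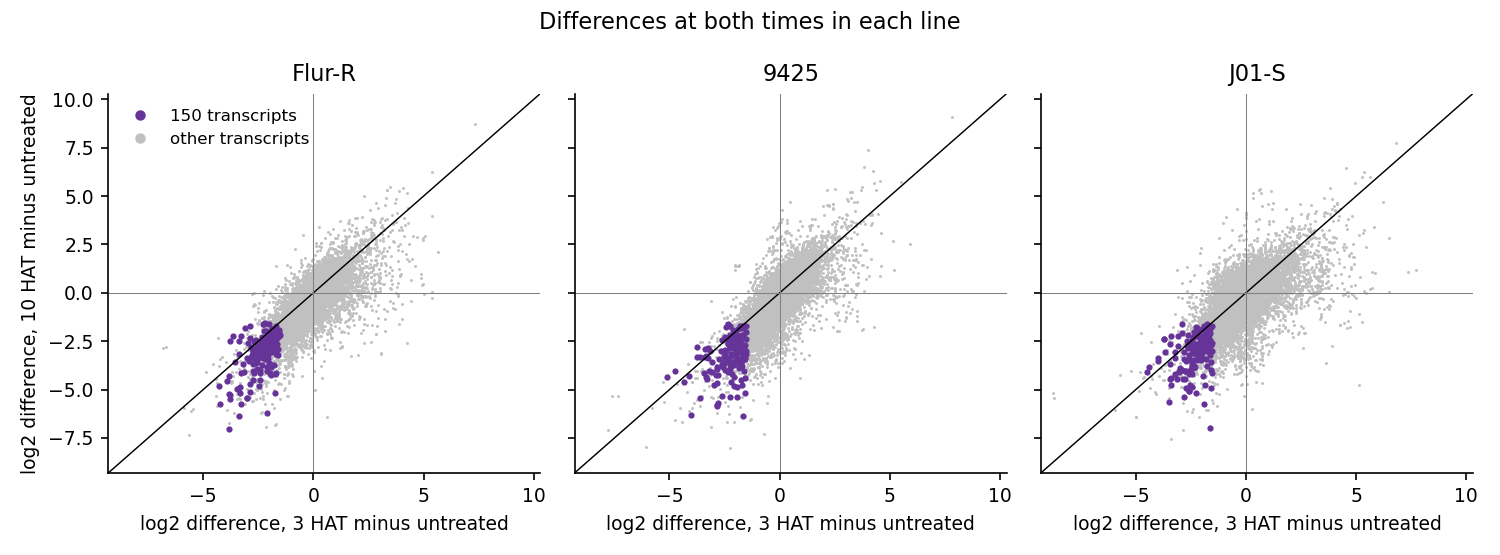
Log2 difference from untreated at 3 HAT (x axis) and at 10 HAT (y axis) in Flur-R, 9425 and J01-S, for the 150 transcripts (purple) and the other transcripts with an untreated mean of 50 or more in each line (grey). The diagonal marks equal differences at both times; 130 of the 150 lie below it for Flur-R, 130 for 9425 and 123 for J01-S.

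The first 10 transcripts in this ranking had weakest differences of -3.51 to -2.63. The first was Bs.00g372170.m01 (chromosome 5, 21891403 to 21899733, plus strand, with 10 exons), whose locus carries 4 gene models, 1 of them described as an uncharacterized protein. In Flur-R, Bs.00g372170.m01 had 264, 203 and 224 normalized counts untreated, 5, 9 and 29 at 3 HAT and 1, 10, 2 and 4 at 10 HAT. In 9425 it had 2101, 143 and 129 untreated, 21, 14 and 27 at 3 HAT and 9, 0 and 7 at 10 HAT, with 1 in the left-out library. In J01-S it had 252 and 286 untreated, 10 and 50 at 3 HAT and 2 and 9 at 10 HAT, with 4 in the left-out library. It was lower in every treated library than in every untreated one, and at 10 HAT all libraries were at 10 counts or fewer. An untreated library of 9425 stood far above the rest at 2101 counts. The described isoform, Bs.00g372170.m02, followed the same course (r = 0.99 over 25 libraries, which share plants, and the counting could split reads between the isoforms).

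The second was Bs.00g123630.m01 (chromosome 4, 104169202 to 104171183, minus strand, with 2 exons). The Flur-R libraries gave Bs.00g123630.m01 normalized counts of 762, 871 and 4205 untreated, 60, 114 and 594 at 3 HAT and 55, 21, 42 and 921 at 10 HAT. Those of 9425 gave 2801, 1274 and 745 untreated, 138, 28 and 508 at 3 HAT and 70, 29 and 230 at 10 HAT, with 47 in the left-out library. Those of J01-S gave 5164 and 2736 untreated, 364 and 452 at 3 HAT and 284 and 152 at 10 HAT, with 30 in the left-out library. Plants differed widely in this transcript. Within Flur-R, plant 4 held the highest value at each time, and its 921 counts at 10 HAT lay above the 762 counts of an untreated plant, so the groups overlapped. The mean log2 differences for Flur-R were -3.13 at 3 HAT and -4.08 at 10 HAT, against -3.45 and -4.13 in 9425 and -3.21 and -4.17 in J01-S.

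A more even pattern over plants was seen in Bs.00g136540.m01 (chromosome 1, 10207502 to 10209872, plus strand, with 5 exons). In Flur-R, Bs.00g136540.m01 had 151, 255 and 232 normalized counts untreated, 21, 14 and 35 at 3 HAT and 20, 19, 11 and 14 at 10 HAT. In 9425 it had 632, 305 and 401 untreated, 48, 35 and 53 at 3 HAT and 17, 69 and 13 at 10 HAT, with 43 in the left-out library. In J01-S it had 395 and 611 untreated, 32 and 81 at 3 HAT and 80 and 43 at 10 HAT, with 29 in the left-out library. Treated and untreated libraries did not overlap in any line. The level at 10 HAT was near that at 3 HAT, with log2 differences between these times of -0.46 for Flur-R, -0.81 for 9425 and 0.20 for J01-S.

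The other strongly lowered transcripts were Bs.00g516360.m01, Bs.00g215510.m01, Bs.00g128950.m01, Bs.00g299800.m01, Bs.00g253150.m01, Bs.00g298010.m01 and Bs.00g127710.m01. Their untreated means over lines ran from 367 normalized counts for Bs.00g215510.m01 to 55254 for Bs.00g127710.m01. Spread between plants was large for Bs.00g516360.m01, whose treated libraries ran from 46 to 1471 counts and whose untreated libraries ran from 566 to 25006. Untreated libraries of Bs.00g298010.m01 (chromosome 9, 2193786 to 2196837, minus strand, with 3 exons) varied less, from 1805 to 3715 counts. Its treated libraries ran from 61 to 914 counts. Bs.00g253150.m01 had treated libraries of 3 to 490 counts and untreated libraries of 764 to 3808, again with no overlap.

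The transcripts that gave the largest untreated counts were Bs.00g243640.m01, Bs.00g127710.m01, Bs.00g114490.m01, Bs.00g309640.m01 and Bs.00g432800.m01, with untreated means over lines of 21943 to 68129 normalized counts. Per kilobase of coding sequence, which allows transcripts to be compared, Bs.00g243640.m01 had 46824 counts, Bs.00g309640.m01 had 29123, Bs.00g127710.m01 had 24923, Bs.00g282100.m01 had 23637 and Bs.00g114490.m01 had 20916. The median of the 150 on this scale was 1174. These abundant transcripts carried the lowering with little overlap. The Flur-R libraries gave Bs.00g127710.m01 normalized counts of 38762, 48431 and 112448 untreated, 3359, 4529 and 13361 at 3 HAT and 2001, 1598, 1326 and 1655 at 10 HAT. Those of 9425 gave 45979, 47120 and 34799 untreated, 8938, 5513 and 6476 at 3 HAT and 2945, 4171 and 2845 at 10 HAT, with 3854 in the left-out library. Those of J01-S gave 51645 and 61518 untreated, 6402 and 9467 at 3 HAT and 2161 and 3105 at 10 HAT, with 2353 in the left-out library. All treated libraries of Bs.00g127710.m01 (chromosome 1, 1781038 to 1792462, minus strand, with 7 exons) lay below all untreated ones. Within each line its values at 10 HAT also lay below those at 3 HAT.

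For Bs.00g243640.m01 (chromosome 7, 3615107 to 3624515, plus strand, with 15 exons) the difference was smaller. In Flur-R, Bs.00g243640.m01 had 40916, 53035 and 77325 normalized counts untreated, 9753, 13591 and 24377 at 3 HAT and 5889, 6680, 10063 and 14364 at 10 HAT. In 9425 it had 105231, 48741 and 65953 untreated, 18805, 9917 and 19566 at 3 HAT and 10287, 8837 and 13829 at 10 HAT, with 16980 in the left-out library. In J01-S it had 73825 and 74150 untreated, 15968 and 24385 at 3 HAT and 13626 and 18964 at 10 HAT, with 10436 in the left-out library. Treated and untreated libraries did not overlap, while the ranges at 3 and 10 HAT did in every line. The log2 difference at 10 HAT was -2.67 for Flur-R, -2.69 for 9425 and -2.20 for J01-S. Bs.00g432800.m01 (chromosome 2, 9897886 to 9906000, minus strand, with 14 exons) had untreated libraries of 17820 to 30960 counts, libraries at 3 HAT of 4602 to 8729 and libraries at 10 HAT of 2780 to 5274. No treated library of it reached an untreated one.

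**Figure D3:**
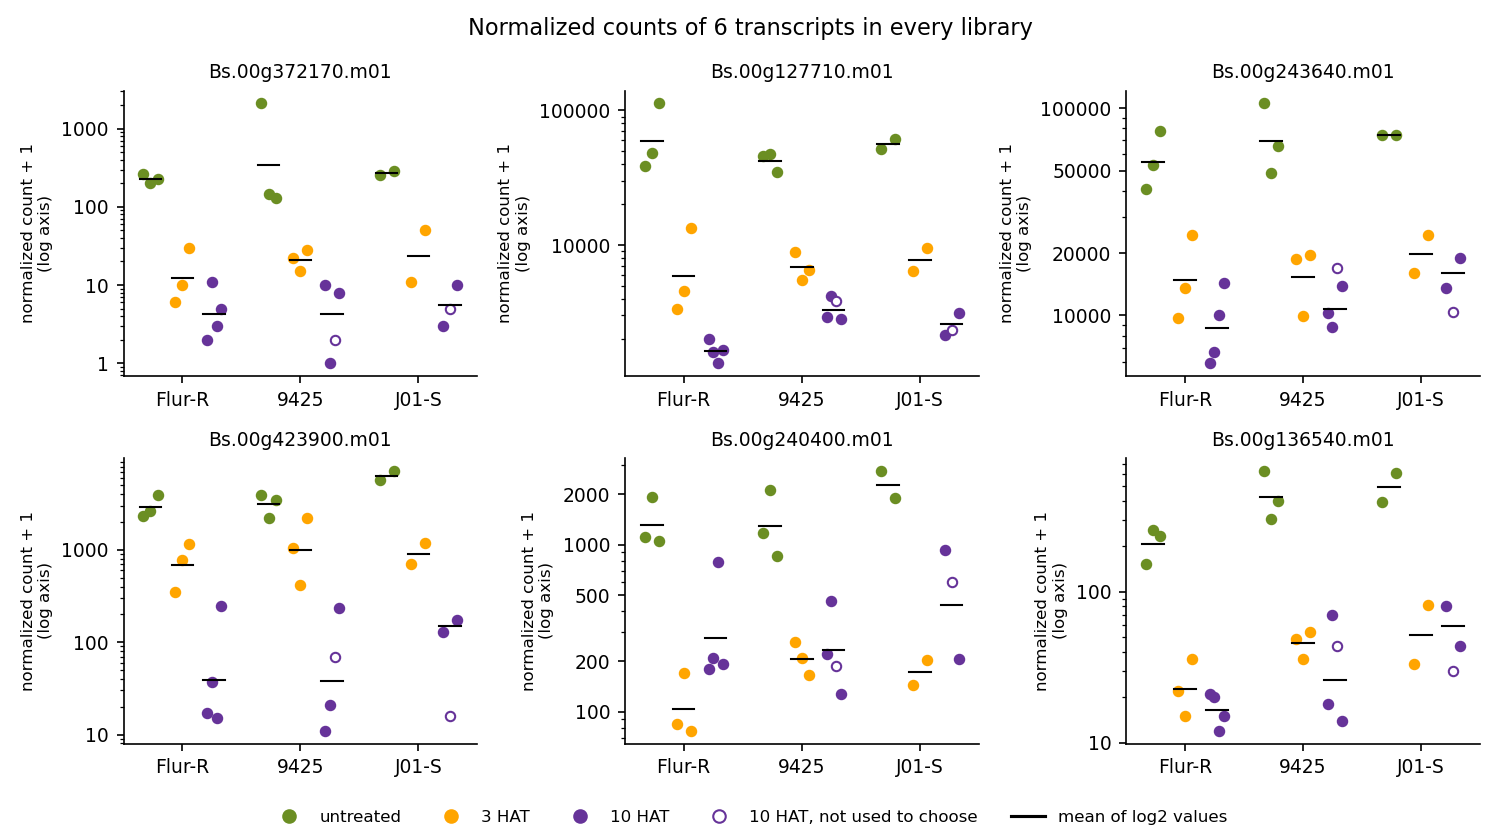
Normalized counts plus 1 (log axes) of 6 of the 150 transcripts in every library, by line and, within each line, from untreated to 3 HAT to 10 HAT. Points are libraries, open points are the 2 libraries not used to choose the transcripts, and bars are means of log2 values; Bs.00g372170.m01, Bs.00g127710.m01 and Bs.00g423900.m01 are lower at 10 HAT than at 3 HAT in the mean of each line, and Bs.00g240400.m01 is higher at 10 HAT.

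The course between 3 and 10 HAT divided the transcripts further. In 103 of the 150 the mean was lower at 10 HAT than at 3 HAT in all 3 lines, in 4 it was higher in all 3, and in 43 the lines did not share a direction. The rule used both times, so counts of this course describe the 150, and the same shares over the 17980 transcripts were not taken. The median log2 difference of 10 HAT minus 3 HAT was -0.65 for Flur-R, -0.99 for 9425 and -0.79 for J01-S, against 0.02, 0.02 and -0.04 over the 17980 transcripts. By more than 1 in every line, 28 transcripts were lower at 10 HAT than at 3 HAT. Another 10 stayed within 0.5 in every line. None was higher at 10 HAT by more than 0.5 in every line. The difference that ranked a transcript, its weakest, came from 3 HAT in 127 of the 150 and from 10 HAT in 23. It came most often from 9425 at 3 HAT (55) and J01-S at 3 HAT (43), then from Flur-R at 3 HAT (29).

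The largest further lowering, averaged over lines, was that of Bs.00g423900.m01 (chromosome 2, 1322056 to 1326361, plus strand, with 3 exons), at -3.81. The Flur-R libraries gave Bs.00g423900.m01 normalized counts of 2305, 2631 and 3961 untreated, 353, 772 and 1144 at 3 HAT and 16, 36, 14 and 248 at 10 HAT. Those of 9425 gave 3955, 2241 and 3436 untreated, 1040, 421 and 2220 at 3 HAT and 10, 20 and 235 at 10 HAT, with 68 in the left-out library. Those of J01-S gave 5668 and 7166 untreated, 702 and 1188 at 3 HAT and 129 and 174 at 10 HAT, with 15 in the left-out library. In each line all libraries at 10 HAT lay below those at 3 HAT, and these lay below the untreated ones. At 10 HAT plant 4 held the highest value in Flur-R and in 9425. Bs.00g465410.m01 (chromosome 2, 72231653 to 72248673, plus strand, with 9 exons) followed at -3.11, with untreated libraries of 8925 to 17779 counts, 2221 to 4713 at 3 HAT and 119 to 1039 at 10 HAT, so that the 3 times did not overlap. Next were both isoforms of Bs.00g048620, at -2.62 and -2.61, and Bs.00g518090.m01 at -2.59. The last of these varied between plants, with 81 to 4566 untreated counts, and its difference between 3 and 10 HAT was -1.50 for Flur-R, -0.95 for 9425 and -5.31 for J01-S.

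The largest mean rise from 3 to 10 HAT was that of Bs.00g240400.m01 (chromosome 7, 1125783 to 1127198, minus strand, a model of a single exon), at 0.98 averaged over lines. This average came mainly from Flur-R and J01-S. In Flur-R, Bs.00g240400.m01 had 1115, 1921 and 1045 normalized counts untreated, 83, 170 and 76 at 3 HAT and 180, 210, 789 and 192 at 10 HAT. In 9425 it had 1172, 2136 and 857 untreated, 259, 209 and 164 at 3 HAT and 222, 460 and 126 at 10 HAT, with 188 in the left-out library. In J01-S it had 2764 and 1898 untreated, 144 and 204 at 3 HAT and 924 and 206 at 10 HAT, with 597 in the left-out library. The level at 10 HAT remained below every untreated library of the line, while the ranges at 3 and 10 HAT overlapped only in 9425. Here 1 Flur-R library, with 789 counts, stood above the other 3 at 10 HAT. The next were Bs.00g537740.m01 at 0.79, Bs.00g245460.m01 at 0.70, Bs.00g292190.m01 at 0.55 and Bs.00g431380.m01 at 0.43. Bs.00g537740.m01 had 97 to 725 counts untreated, 5 to 34 at 3 HAT and 3 to 74 at 10 HAT.

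Few of the transcripts were lost from the tissue altogether. Bs.00g515680.m01 (chromosome 6, 75010063 to 75014794, minus strand), named after its values were seen, was the only member of the 150 with fewer than 10 counts in every library used at 10 HAT, where it had 0 to 9, against 45 to 183 counts untreated. None had so few in every library at 3 HAT, and 105 of the 150 kept 10 counts or more in all 27 libraries.

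The 2 libraries that were not used to choose the transcripts were set against the untreated libraries, which were used, and replicate 3 of 9425 also had an untreated and a 3 HAT library among those used. Their own values had no part in the choice, but the comparison is thus not independent of it. In the library labelled 9425 10 HAT replicate 3, 148 of the 150 transcripts lay below every untreated 9425 library, against 39.0% of the 17980 transcripts. In replicate 3 at 10 HAT of those labelled J01-S, 148 of the 150 lay below every untreated J01-S library, against 40.7%. Since the line of both is in doubt, they were also set against the untreated libraries of all lines, and 145 (29.0% of the 17980) and 143 (23.8%) of the 150 lay below all 8. Lower by more than 1 than the untreated mean of the labelled line were 146 (23.2% of the 17980) and 148 (18.2%) of the 150. Their median log2 difference from the untreated mean of the labelled line was -3.27 and -3.05, against -0.05 and 0.02 over the 17980.

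In 3 of the 4 exceptions an untreated plant of the same line was lower than the treated library, and at least 1 other was several-fold higher. In the library labelled 9425 10 HAT replicate 3, Bs.00g155130.m01 had 273 counts, against 215, 1352 and 192 in untreated 9425, and Bs.00g205490.m01 had 342 counts, against 2499, 1028 and 8. In that labelled J01-S, Bs.00g215510.m01 had 77 counts, against 91 and 75 in untreated J01-S, and Bs.00g521410.m01 had 320 counts, against 5154 and 168. The untreated J01-S plants were alike in the fourth, Bs.00g215510.m01, and its 3 untreated 9425 libraries held 472 to 1228 counts, all above that library.

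Few of these transcripts were called between the untreated lines. The rule did not use this contrast, but the untreated level of each line entered every difference that chose the transcripts, so the calls describe the 150 and their small number is not evidence that the lines were alike. With limma, and calls at an adjusted p below 0.05 with a log2 fold change beyond 0.5 either way, 1 of the 150 was called between Flur-R and 9425 (5.30% of the 28945 tested), 1 between Flur-R and J01-S (3.07%), and 4 between 9425 and J01-S (5.72%). The median log2 fold change of the 150 was -0.24 for Flur-R against 9425, -0.34 for Flur-R against J01-S and -0.15 for 9425 against J01-S, while over all tested it was -0.01, -0.01 and -0.03. The value in Flur-R was below that in 9425 for 101 of the 150 and below that in J01-S for 115, against 50.4% and 50.7% of all tested, and the value in 9425 was below that in J01-S for 87, against 51.8%. These are counts over transcripts of the same plants and carry no test. Leaving out single untreated libraries moved 2 of the counts of calls. For Flur-R against J01-S there were 0 without Flur-R replicate 2 or either J01-S library and 2 without Flur-R replicate 4. For 9425 against J01-S there were 0 without J01-S replicate 1, 1 without 9425 replicate 1 and 2 without 9425 replicate 2 or 3.

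Bs.00g297170.m01 (chromosome 9, 1506955 to 1512670, minus strand, with 14 exons) was the transcript lower in Flur-R than in 9425. The Flur-R libraries gave Bs.00g297170.m01 normalized counts of 762, 1144 and 1206 untreated, 222, 442 and 445 at 3 HAT and 175, 150, 275 and 362 at 10 HAT. Those of 9425 gave 2988, 4052 and 3337 untreated, 899, 625 and 662 at 3 HAT and 352, 598 and 494 at 10 HAT, with 394 in the left-out library. Those of J01-S gave 1321 and 1170 untreated, 278 and 355 at 3 HAT and 377 and 302 at 10 HAT, with 662 in the left-out library. The untreated 9425 libraries all lay above those of the other 2 lines, which overlapped. Its log2 fold change was -1.75 ± 0.32 (SE) for Flur-R against 9425 (limma adjusted p = 0.0019) and 1.46 ± 0.36 for 9425 against J01-S (adjusted p = 0.0198). Flur-R and J01-S differed by -0.29 ± 0.36 (adjusted p = 0.818). The first of these calls was kept in every alternative setting and with each library left out (adjusted p from 0.000138 to 0.0209). The call against J01-S was lost without untreated replicate 2 of 9425 (adjusted p = 0.0728) and without either untreated J01-S library (0.0826 without replicate 1 and 0.117 without replicate 4). At 10 HAT its mean was 240.5 ± 97.4 counts in Flur-R (SD, n = 4), 481.3 ± 123 in 9425 (n = 3) and 339.5 ± 53 in J01-S (n = 2).

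Between Flur-R and J01-S the call was Bs.00g010420.m01 (chromosome 8, 11686389 to 11694580, minus strand, with 2 exons). In Flur-R, Bs.00g010420.m01 had 3050, 3775 and 4130 normalized counts untreated, 883, 1033 and 894 at 3 HAT and 981, 796, 856 and 526 at 10 HAT. In 9425 it had 5267, 5157 and 5687 untreated, 2262, 2019 and 1333 at 3 HAT and 821, 1137 and 633 at 10 HAT, with 1282 in the left-out library. In J01-S it had 7636 and 7774 untreated, 2102 and 2172 at 3 HAT and 1626 and 1678 at 10 HAT, with 1619 in the left-out library. The untreated libraries of the 3 lines did not overlap, with Flur-R lowest and J01-S highest, and the same order held for the means at 3 HAT. The log2 fold change of Flur-R against J01-S was -1.09 ± 0.25 (limma adjusted p = 0.0197). This call was lost without untreated Flur-R replicate 2 (adjusted p = 0.0966), without either untreated J01-S library (0.107 without replicate 1 and 0.108 without replicate 4), and in a fit of only these groups (0.0819).

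The other calls between 9425 and J01-S were 2 neighbours on chromosome 1, Bs.00g131880.m01 and Bs.00g131890.m01, and a transcript on chromosome 4, Bs.00g102180.m01, which was named after its values were seen. The Flur-R libraries gave Bs.00g131890.m01 normalized counts of 3972, 6183 and 2080 untreated, 886, 1619 and 644 at 3 HAT and 147, 204, 384 and 119 at 10 HAT. Those of 9425 gave 11971, 8482 and 6725 untreated, 2930, 2820 and 1475 at 3 HAT and 411, 470 and 141 at 10 HAT, with 54 in the left-out library. Those of J01-S gave 579 and 2060 untreated, 89 and 337 at 3 HAT and 187 and 51 at 10 HAT, with 491 in the left-out library. Bs.00g131890.m01 (chromosome 1, 5551431 to 5552037, plus strand) was lowest in both untreated J01-S libraries, and Flur-R lay between the other lines. Its log2 fold change for 9425 against J01-S was 3.01 ± 0.73 (limma adjusted p = 0.0185). Bs.00g131880.m01 (chromosome 1, 5550784 to 5551386, minus strand), 44 bases away on the other strand, had 14587, 7549 and 10120 counts in untreated 9425, against 1055 and 3123 in untreated J01-S (2.51 ± 0.66, adjusted p = 0.0295). Bs.00g102180.m01 had 2117, 1286 and 1689 counts in untreated 9425, against 154 and 465 in untreated J01-S (2.63 ± 0.73, adjusted p = 0.0394). Without untreated J01-S replicate 1 the adjusted p was 0.254 for Bs.00g131890.m01, 0.325 for Bs.00g131880.m01 and 0.365 for Bs.00g102180.m01. Without untreated 9425 replicate 1 it was 0.0505, 0.0757 and 0.0863 in the same order. All 3 calls were lost in a fit of only the groups compared (0.115 for Bs.00g131890.m01, 0.139 for Bs.00g131880.m01 and 0.116 for Bs.00g102180.m01) and with all 27 libraries (0.0805, 0.115 and 0.209). The call of Bs.00g102180.m01 was also lost without the filter on low values (0.0507), without 9425 untreated replicate 2 or 3 or 10 HAT replicate 1 (0.0678, 0.0892 and 0.0503), and with a replicate block (0.0774 with plant as a random effect and 0.0711 with plant number as a fixed effect). That of Bs.00g131880.m01 was lost without untreated 9425 replicate 3 (0.067) and with plant number as a fixed replicate block (0.0597). That block also called Bs.00g339980.m01, named after its values were seen, as lower in 9425 than in J01-S (-1.76 ± 0.45, adjusted p = 0.028). Bs.00g102180.m01 and Bs.00g131880.m01 correlated at r = 0.99 over 25 libraries that share plants, and the choice of lowered transcripts raises this r. Whether reads of these transcripts are shared was not tested, and the strand of the counting is not given in the sources used here, so the 3 are uncertain as separate measurements.

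**Figure D4:**
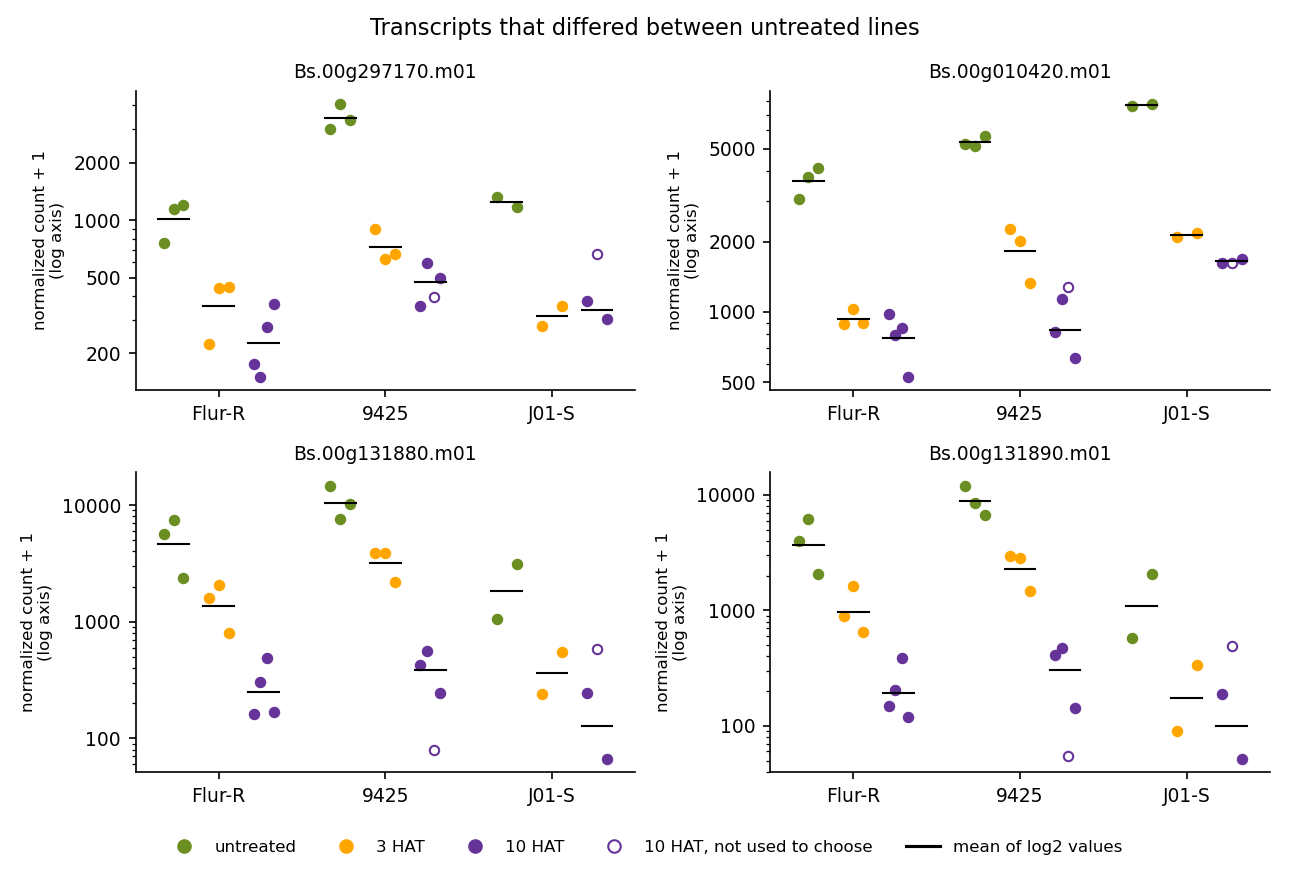
Normalized counts plus 1 (log axes) of 4 transcripts called between untreated lines, in every library, by line and, within each line, from untreated to 3 HAT to 10 HAT. Points are libraries, open points the 2 libraries not used to choose the transcripts, and bars are means of log2 values; untreated 9425 is highest in 3 panels and untreated J01-S is highest for Bs.00g010420.m01.

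No difference in the size of the response between lines was called in these transcripts. Among the 6 contrasts of responses (3 pairs of lines at 2 times), limma called 0 of the 150. The share of all transcripts called was 0.0104% at 3 HAT and 0.0587% at 10 HAT for Flur-R minus 9425, 0% and 0.00345% for Flur-R minus J01-S, and 0% and 0.0104% for 9425 minus J01-S. At an unadjusted p under 0.05 were 1 of the 150 at 3 HAT (0.667%, against 3.06% of all tested) and 6 at 10 HAT (4.00%, against 6.49%) for Flur-R minus 9425. For Flur-R minus J01-S there were 1 (0.667%, against 2.09%) and 4 (2.67%, against 4.53%), and for 9425 minus J01-S 2 (1.33%, against 3.06%) and 3 (2.00%, against 4.42%). The responses themselves chose the transcripts, so nothing is read from these counts. The standard error of a difference of responses at the median transcript was 0.74 to 0.85 without a block and 0.573 to 0.698 with plant as a random replicate block. Within a transcript, the responses of the 3 lines spanned 0.63 on the log2 scale at 3 HAT and 0.87 at 10 HAT at the median, against 0.42 and 0.54 over the 17980 transcripts.

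With plant as a random replicate block, 1 transcript was called in these contrasts, Bs.00g477420.m01 (chromosome 6, 2903444 to 2910542, minus strand, with 5 exons), which was named after its values were seen. In Flur-R, Bs.00g477420.m01 had 192, 482 and 421 normalized counts untreated, 112, 121 and 111 at 3 HAT and 117, 85, 75 and 85 at 10 HAT. In 9425 it had 691, 493 and 563 untreated, 57, 49 and 112 at 3 HAT and 17, 35 and 60 at 10 HAT, with 58 in the left-out library. In J01-S it had 343 and 557 untreated, 87 and 118 at 3 HAT and 122 and 46 at 10 HAT, with 50 in the left-out library. Its difference at 10 HAT was -1.91 in Flur-R and -4.08 in 9425, and the block gave a difference of responses of 2.36 ± 0.50 (SE, limma adjusted p = 0.0299). Without the block it was 2.17 ± 0.62 (adjusted p = 0.36), and with plant as a fixed block no transcript was called. All 3 lines had treated libraries below all their untreated ones.

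The 150 transcripts came from 147 loci, with 3 loci giving both isoforms, Bs.00g048620, Bs.00g221560 and Bs.00g420370. Isoforms of a locus correlated at r = 0.998 or more over the 25 libraries. The counting could split reads between them, so each such pair counts as 1 measurement. The coding length had a median of 1107 bases (201 to 3351), against 1101 over the 17980 transcripts, and the median number of exons was 5, against 6. Transcripts with more than 10 exons made up 14 of the 150 (9.33%), against 20.8%. A single exon was found in 15 (10.0%), against 8.89%. Loci with several gene models made up 8 (5.33%), against 14.7%. The median span in the genome was 3014.5 bases, against 4382. The choice did not use these features, but they are counts over transcripts and carry no test.

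The transcripts lay on all 9 chromosomes of genome assembly version 2 and 1 lay on an unscaffolded sequence. Chromosome 9 held 23 of them (15.3%), against 10.1% of the 17980, and chromosome 2 held 21 (14.0%), against 10.3%. Chromosome 8 held 6 (4.00%), against 10.6%. The other 6 chromosomes held 14 to 18 each.

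**Figure D5:**
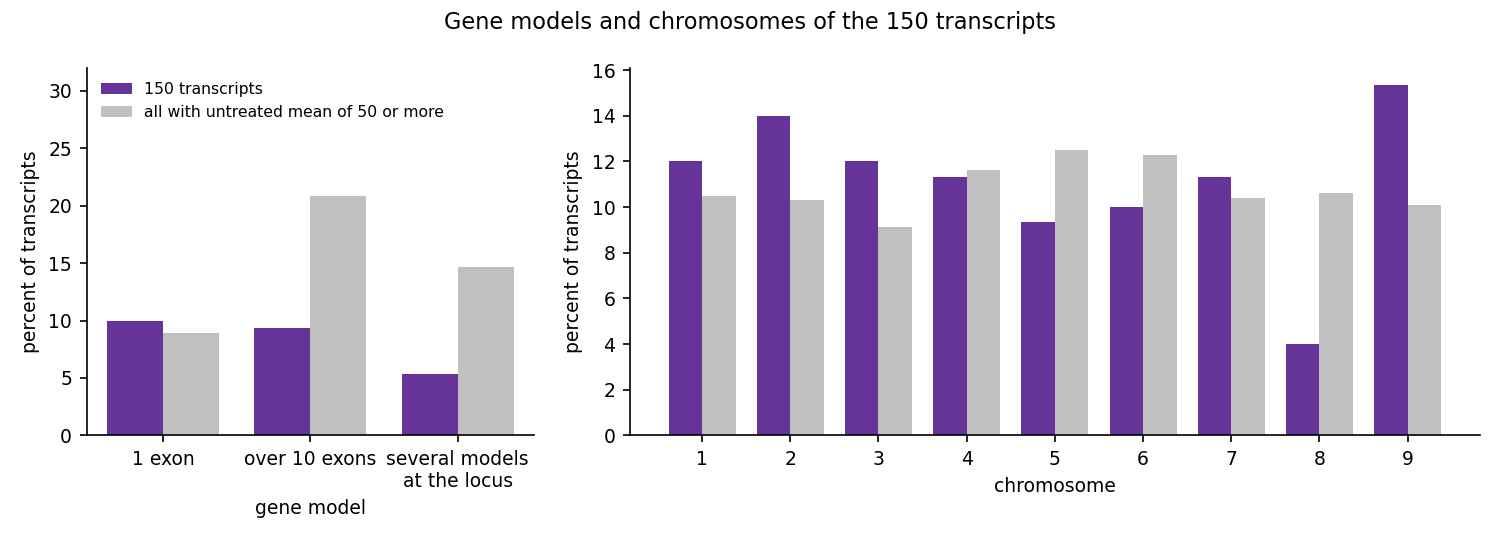
Left, share of the 150 transcripts (purple) and of all 17980 transcripts with an untreated mean of 50 or more in each line (grey) whose gene model has 1 exon, has over 10 exons or shares its locus with other models. Right, share of both sets on each chromosome; models with over 10 exons make up 9.33% of the 150 against 20.8%, and chromosome 8 holds 4.00% against 10.6%.

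Some of the loci lay side by side. Within 3 gene models of each other there were 12 pairs, which involved 21 of the 147 loci, and 7 of these pairs were directly adjacent. The number of such pairs among other transcripts was not taken, so no clustering is read from this. The closest was Bs.00g423480.m01 and Bs.00g423490.m01 on the plus strand of chromosome 2, between 974372 and 979394, with 38 bases between their models. Bs.00g423490.m01 had 8319 to 25861 counts untreated, 862 to 3833 at 3 HAT and 770 to 2813 in the libraries used at 10 HAT, with no overlap of treated and untreated libraries. The smaller neighbour Bs.00g423480.m01 had 436 to 3236 counts untreated, 37 to 279 at 3 HAT and 79 to 483 in the libraries used at 10 HAT, and followed it with r = 0.96 over 25 libraries. In both, the left-out library labelled 9425 replicate 3 stood above the other 9425 libraries at 10 HAT. Other adjacent pairs were Bs.00g221550 and Bs.00g221560 on chromosome 3 (118 bases, r = 0.96), Bs.00g179270 and Bs.00g179280 on chromosome 1 (146 bases, r = 0.97), and Bs.00g195680 and Bs.00g195690 on chromosome 3 (214 bases, r = 0.93). All 3 of these pairs and the first lie on the plus strand, and whether such close neighbours are separate genes was not tested. The choice made all of these transcripts lower after treatment, which by itself raises r between them. The r between members that are not neighbours was not taken for comparison, so nothing about adjacency is read from these values.

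Among the adjacent pairs, r was lowest for Bs.00g243630.m01 and Bs.00g243640.m01 on chromosome 7, with 658 bases between them (r = 0.76). The same limit holds for each r given here. The first had 7 to 51 counts at 10 HAT and 43 to 511 untreated, a log2 difference over lines of -3.74, against -2.52 for the abundant second. Bs.00g124070.m01 on chromosome 4 lay 3 models from Bs.00g124100.m01, described as a multi antimicrobial extrusion protein, a class of membrane transporters, whose weakest difference was -2.45 (r = 0.87).

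Transcripts that the paper describes were set aside by the choice, but met the same thresholds. The study named them on these samples, so their number is not independent evidence of a direction. Of the 69 that met every threshold, 52 had a weakest difference beyond that of the last of the 150. Their mean log2 difference over lines had a median of -3.17 at 3 HAT and -4.53 at 10 HAT, against -2.26 and -3.11 for the 150. The strongest was Bs.00g056860.m01, described as a peptidase or proteinase inhibitor I9, a domain found in subtilisin-type proteases, with treated libraries of 0 to 46 counts and untreated libraries of 65 to 695. Next was Bs.00g126000.m01, an NADH-cytochrome b5 reductase, which passes electrons to cytochrome b5. It had 169 to 6531 counts in the treated libraries used, 10133 in the left-out library labelled J01-S, and 18949 to 102405 untreated. The third was the multicopper oxidase Bs.00g479050.m01, with 1 to 227 counts treated and 150 to 1402 untreated.

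The next of these were the proton-dependent oligopeptide transporter Bs.00g195790.m01 (weakest difference -3.79), the haloacid dehalogenase-like hydrolase Bs.00g196880.m01 (-3.75) and the phosphoenolpyruvate carboxylase kinase Bs.00g104620.m01 (-3.73), which phosphorylates the enzyme that fixes bicarbonate. Both isoforms of the methyltransferase Bs.00g383340 followed (-3.72 and -3.71), then the lipid-binding CRAL-TRIO protein Bs.00g370120.m01 (-3.67), the uncharacterized isoform at Bs.00g372170 (-3.53), the auxin-inducible protein Bs.00g528960.m01 (-3.48) and the multicopper oxidase Bs.00g251440.m01 (-3.39). By group, all thresholds were met by 7 of 8 polyketide synthases, methyltransferases and multicopper oxidases, 7 of 10 transporters and channels, 5 of 8 cellulose synthases and glycoside hydrolases, and 5 of 9 transcripts of photosynthesis and chlorophyll. They were also met by 3 of 3 early light-induced proteins, 3 of 3 kinases and receptors, and 1 of 5 cytochrome P450s. Both isoforms of Bs.00g383340, of the cellulose synthase Bs.00g015170 and of the chlorophyll-binding Bs.00g240870 were counted, though each such pair is 1 measurement. The photosynthesis group had a median of -1.58 at 3 HAT and -4.53 at 10 HAT, and the early light-induced proteins, which protect chlorophyll under strong light, had -7.60 and -4.53.

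At the edge of the choice, the last 3 transcripts inside had weakest differences of -1.53 (Bs.00g297170.m01), -1.52 (Bs.00g221550.m01) and -1.52 (Bs.00g475680.m01). The first 3 outside were Bs.00g127980.m01 at -1.52, Bs.00g340390.m01 at -1.51 and Bs.00g050770.m01 at -1.51. The edge is thus a matter of rank and not of a gap in the values. Bs.00g475680.m01, the last inside, had 4432 to 7882 counts untreated, 790 to 2731 at 3 HAT and 121 to 1130 in the libraries used at 10 HAT. Bs.00g127980.m01, the first outside, had 613 to 1875 counts untreated, 132 to 671 at 3 HAT and 71 to 209 in the libraries used at 10 HAT.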

How the data were processed

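RNA of meristem tissue from 27 libraries of 3 kochia lines was ribosome-depleted and sequenced in paired ends by the authors. Reads were aligned to the coding sequences of genome assembly version 2 (HISAT2 2.1.0 in the submitters' processing notes), counted with featureCounts and scaled with DESeq; strand is not given in the sources used here. The deposited values are these normalized counts rounded to whole numbers, treated here as a score per transcript, so the files give no read depth and no count model was run. The deposited gene models gave positions and exons.

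The 150 transcripts and the lists were chosen with earlier results of these data known. log2(value + 1) was fitted with limma 3.58.1 (R 4.3.3, variance trend) over the 9 groups of 25 libraries, with transcripts at 10 or more in at least 2 libraries, Benjamini-Hochberg adjustment over 28945 transcripts, and calls at an adjusted p below 0.05 with a log2 fold change beyond 0.5 either way. The fit was tested on simulated data. The named transcripts were the 10 strongest, those with described isoforms, neighbours within 3 models (at most 12), the 5 with the largest untreated mean, called ones, those at the edge, exceptions in the left-out libraries (at most 5), the 5 largest further falls and the 5 largest returns at 10 h, and at most 12 described transcripts. Figures used Python 3.11.15 and matplotlib 3.10.9.

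The study's methods say that the same plants were sampled at every time, but not that a replicate number marks a plant, which was taken from the data. Deviations from group means correlated between libraries of the same number with a median r of 0.725 (Flur-R), 0.508 (9425) and 0.608 (J01-S). Every such pair was above 0.44. Between different numbers the median r was -0.275, -0.242 and -0.449, and the highest was 0.43, 0.452 and 0.458. The ranges thus overlapped in 9425 and J01-S. Centring on the means of small groups by itself pushes r between different numbers below 0, so their sign is not evidence. The numbers were taken to pair the samples, which remains an assumption. The libraries of a group come from separate plants.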

Additional observations from a re-analysis of the deposited data

Results flagged for a closer look

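Among the 41 named transcripts, each group of 4 libraries at 10 HAT (Flur-R and 9425, with the library labelled 9425 replicate 3 included) was searched for a library whose gap to its nearest neighbour, as a share of the group's range, exceeded Dixon's critical value at 95%. This held for 14 of 82 groups, and chance alone flags about 1 in 20 groups of independent, normally distributed values. The search used counts that were not put on a log scale, so that rate need not hold here. These transcripts are correlated, some were named for their values at 10 HAT, and the 9425 groups hold a library of doubtful line, so no excess is read from the number. In Flur-R at 10 HAT, replicate 4 stood highest in 4 transcripts, with 921 counts for Bs.00g123630.m01 (the others 21 to 55), 34 for Bs.00g215510.m01 (0 to 4), 135 for Bs.00g299800.m01 (13 to 21) and 248 for Bs.00g423900.m01 (14 to 36). Replicate 3 was highest for Bs.00g240400.m01 with 789 (180 to 210), and replicate 1 was lowest for Bs.00g195680.m01 with 18 (28 to 29).

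In 9425 at 10 HAT, replicate 2 stood highest in 4 transcripts, with 101 counts for Bs.00g128950.m01 (the others 36 to 45), 237 for Bs.00g298010.m01 (88 to 108), 6075 for Bs.00g309640.m01 (1306 to 1938) and 383 for Bs.00g292190.m01 (85 to 123). The library labelled replicate 3, whose line is in doubt, was highest for the adjacent Bs.00g423480.m01 and Bs.00g423490.m01, with 311 (79 to 89) and 2789 (770 to 1090), and for Bs.00g195680.m01 with 106 (8 to 20). Replicate 4 was lowest for Bs.00g195690.m01 with 37 (62 to 67).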

How the results depend on the processing

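The choice of the 150 kept 120 to 150 of the transcripts under 6 other settings (another pseudocount, all 27 libraries, another scaling, medians for means, a higher untreated minimum) and 132 to 148 with any 1 library left out. In a fit of only the groups compared, the calls between untreated lines numbered 2, 0 and 2 (Flur-R against 9425, Flur-R against J01-S, 9425 against J01-S), and those lower within lines 40 in Flur-R and 19 in 9425 at 3 HAT, and 0 at 3 HAT and 0 at 10 HAT in J01-S, where the fit holds few libraries. With all 27 libraries, 1 was called between untreated 9425 and J01-S. With plant as a random replicate block, 131 were called lower in J01-S at 3 HAT and 1 differed in response. The other counts under a replicate block stayed within 1.5 times those without it, and the single calls lost or gained are given with the lines. Leaving out libraries in turn gave 1 to 1, 0 to 2 and 0 to 4 calls between untreated lines in the same order. Calls lower numbered 87 to 118 and 127 to 139 (Flur-R, first 3 HAT and then 10 HAT), 58 to 107 and 129 to 141 in 9425, and 36 to 94 and 86 to 128 in J01-S; 0 to 0 differed in response. Where J01-S then held 1 library, it was assumed to vary like the other groups. No direction was reversed. The share of all tested transcripts called was not taken under these settings, so the counts describe the 150 only. With 2 or 3 untreated plants a line, small differences between lines were not detectable.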
